A study of Mus musculus with 2 samples.

Results

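The genes described here encode the contractile apparatus of smooth muscle: its actins and myosins, the kinase and phosphatase subunits that act on myosin, thin filament proteins, desmin, proteins of dense bodies and adhesions, 2 genes of calcium and potassium handling, and the transcriptional coactivator Myocd. They were taken by name from a list of 32 genes that has no cut on a measured value, although the list was made with earlier results of these data known. All 32 were present, each once, among the 29004 features of the count matrices. Their transcripts were followed in mesenchymal cells of the neonatal mouse lung with and without blockade of Hedgehog ligands.

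Whole lungs of mouse pups were dissociated and profiled with the droplet-based 10x Genomics 3' kit (version 2), which counts unique molecular identifiers (UMIs), each standing for 1 captured transcript molecule. Pups of both groups had the genotype Gli1CreERT2/+;R26RtdT/+, a tamoxifen-inducible Cre recombinase at 1 copy of the Gli1 locus and a tdTomato reporter at 1 copy of the Rosa26 locus, and both groups received tamoxifen subcutaneously at postnatal day 1. At day 3 one group received 5E1, an antibody that blocks Hedgehog ligands, and the other control IgG, and lungs were taken at day 6. Lungs of 3 pups were pooled per group and about 20000 cells were loaded, so each of the 2 conditions is 1 library. With 1 library per condition there is no replicate check, no test and no p-value below. Intervals are exact 95% intervals that cover counting error only, and higher and lower refer to these libraries.

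Smooth muscle shortens when myosin light chain is phosphorylated by its calmodulin-dependent kinase and thick filaments of smooth muscle myosin pull on thin filaments of smooth muscle actin, and myosin phosphatase reverses the step. Thin filaments carry tropomyosin, calponin and caldesmon and are anchored at dense bodies through alpha-actinin and at the membrane through vinculin and talin. Many of these genes are known targets of serum response factor and its coactivator myocardin, through a promoter element called the CArG box. In the lung the apparatus is found in airway and vascular smooth muscle, and in a lower amount in pericytes and in the alveolar myofibroblasts that appear while the alveolar septa form.

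The CArG box is shown as a description. The genes were taken by name and not by this sequence, but many are known targets through it. A higher share of genes with the box is therefore not independent of the choice of genes. RefSeq promoter windows (GRCm38.p6, 250 bases before to 50 after a start site) were at hand for 28 of the 32 genes, and Tagln, Myh11, Actg2 and Myocd had no entry. A CArG box with no mismatch, searched as a palindromic pattern that covers both strands, was in a window of 5 of the 28 genes (17.9%), against 488 of 27025 genes of the table (1.81%). The bases around the boxes of these 5 genes follow in the direction of transcription, with the box in capitals. They lie at chr2:114052888-114052947 on the minus strand for Actc1, chr2:156775278-156775337 on the plus strand for Myl9, chr10:79988519-79988578 on the plus strand for Cnn2, chr10:128493025-128493084 on the minus strand for Myl6 and chr14:20929148-20929205 on the plus strand for Vcl.
Actc1: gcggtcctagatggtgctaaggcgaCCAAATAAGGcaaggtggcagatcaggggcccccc
Myl9: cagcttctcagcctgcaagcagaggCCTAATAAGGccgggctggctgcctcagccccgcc
Cnn2: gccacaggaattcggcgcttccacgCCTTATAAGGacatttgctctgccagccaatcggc
Myl6: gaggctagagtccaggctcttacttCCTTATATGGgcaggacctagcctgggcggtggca
Vcl: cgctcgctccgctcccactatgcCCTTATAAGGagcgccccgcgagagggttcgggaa
The box began 47, 161, 56, 50 and 227 bases before the start site of Actc1, Myl9, Cnn2, Myl6 and Vcl. Myl6 also has a window at another start site, which held no box. The letters GACCACCC or their reverse complement GGGTGGTC, a core of the binding motif of the GLI factors that act in Hedgehog signaling, were in no window of the 28 genes and in 0.932% of the genes of the table. A match is a description of these letters and not a shown binding site, and a missing match covers only these windows.

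The 13509 annotated cells of the IgG library held 77436890 UMIs and the 9454 of the 5E1 library 58890639, and 184 cell barcodes occurred in both libraries (1.36% and 1.95% of the cells). The authors had assigned each cell to 1 of 23 clusters without cell type names. The clusters were formed from the expression of the same cells, so the level of contractile genes across clusters is a description, and so is the membership of cells whose contractile genes differ between the libraries. Clusters 12, 21 and 23 were alveolar myofibroblast-like by marker genes among their 50 leading genes (Pdgfra, Tgfbi and P2ry14 in 12; Tgfbi, Aspn, Wnt5a, Fgf18, P2ry14 and Egln3 in 21; Pdgfra, Tgfbi, Stc1, P2ry14 and Mustn1 in 23), and cluster 12 was also led by genes of dividing cells. Clusters 16 and 22 were smooth muscle-like, a name that rests in large part on the contractile genes themselves, since 10 markers led cluster 16, of which Pcp4l1 alone is not among the 32 genes, and Acta2, Lmod1, Map3k7cl, Sncg and Actc1 led cluster 22. Clusters 19 and 20 were matrix fibroblast-like, 13 pericyte-like, 18 adventitial fibroblast-like and 4 B cell-like.

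Contractile transcripts made up the largest share of UMIs in the smooth muscle-like clusters and the next largest in the alveolar myofibroblast-like ones. The 32 genes together took 8.27% of all UMIs of cluster 16 with IgG and 8.48% with 5E1, and 3.47% and 3.72% in cluster 22. They took 2.88%, 2.39% and 2.06% of clusters 21, 23 and 12 in the IgG library, and 1.70%, 1.65% and 1.29% in the 5E1 library. The pericyte-like cluster, at 1.65% and 1.68%, was below all 3 in the IgG library and between clusters 21 and 23 in the 5E1 library. In the matrix fibroblast-like clusters they took 1.06% and 0.988% (cluster 19) and 1.07% and 0.972% (cluster 20), and in cluster 18 0.604% and 0.560%. B cells have no smooth muscle apparatus, and their 0.266% and 0.194% serve as a reference level, of which free RNA as a part was not tested. This sum is not a floor, since it includes genes that are expressed more widely. Of the 3644 contractile UMIs there with IgG and 4037 with 5E1, 1104 and 1467 were of Myl6 and 419 and 547 of Cnn2. In the other 14 clusters, the B cell-like one among them, the share was between 0.217% and 1.03% with IgG and between 0.194% and 0.935% in the 5E1 library. In each of these 14 clusters the share was lower in the 5E1 library, with the interval of the ratio below 1. The ratios lay between 0.729 (cluster 4) and 0.971 (cluster 15), and the cause was not tested. Of the 32 genes 23 had their highest level in cluster 16 in each library. Below that the order differed by gene: in the IgG library Des stood at 992 CPM in cluster 21 and 478 CPM in cluster 22, while Acta2 stood at 5731 and 9128 CPM, where CPM are UMIs of the gene scaled to 1000000 UMIs of the cluster in that library. In the other 14 clusters Acta2 was lower with 5E1 in each but cluster 1. It stood at 198.7 CPM with IgG and 91.55 CPM with 5E1 in cluster 9, and at 141.7 and 161.2 CPM in cluster 1.

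**Figure D1:**
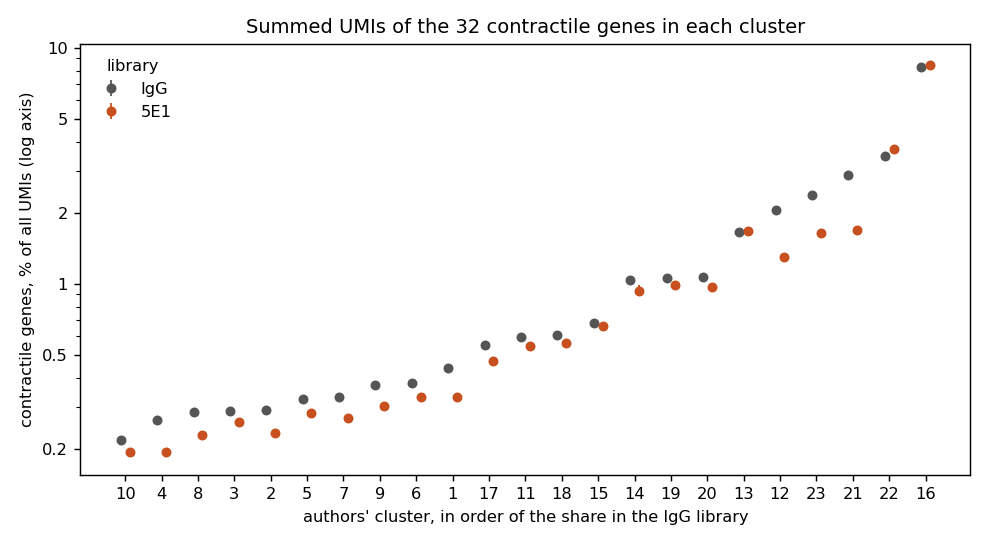
Share of all UMIs that came from the 32 contractile genes (percent, log axis) in each of the authors' 23 clusters, with exact 95% intervals for counting error that are mostly smaller than the points. The 5E1 points of clusters 12, 21 and 23 lie at 1.29% to 1.70% and the IgG points at 2.06% to 2.88%, while the 2 points of clusters 16 and 22 lie close together.

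In the alveolar myofibroblast-like clusters many contractile genes were lower in the 5E1 library, and in cluster 21 most were at least 1.5-fold lower. A gene was counted as lower or higher when it differed by at least 1.5-fold. In cluster 12, 27 of the 32 genes had a total of at least 100 UMIs over both libraries, and 13 of these were lower and 0 higher, where 7.94% and 2.7% of all genes with as many UMIs were lower and higher. In cluster 21, 29 genes were measured, 21 were lower and 1 was higher, against 6.46% and 4.23% of all genes. In cluster 23, 26 genes were measured, 11 were lower and 0 higher, against 4.59% and 3.97%. The minimum of 100 UMIs favours genes that are high in the IgG library, which held more cells of clusters 12 (640 against 168) and 21 (974 against 384), though not of cluster 23 (494 against 552). The median log2 ratio (5E1 over IgG) of the measured contractile genes was -0.56, -0.76 and -0.46 in clusters 12, 21 and 23, beside -0.07, -0.04 and -0.05 over all genes, and with no minimum of UMIs the contractile medians were -0.59, -0.80 and -0.57. With 2-fold as the limit 6, 8 and 3 genes were lower, against 2.21%, 1.67% and 1.29% of all genes. Of the 26 genes measured in all 3 clusters, 21 had an interval of the ratio below 1 in each, against 6.13% of all genes measured in the 3 clusters. At least 1.5-fold lower in each were 9, against 1.38% of all genes: Acta2, Actg2, Myh11, Myl9, Tpm1, Tpm2, Cnn1, Cnn2 and Lmod1. These 3 clusters come from the same 2 libraries and are not replicates.

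Both smooth muscle actins were lower in all 3 alveolar myofibroblast-like clusters. Acta2, which encodes alpha smooth muscle actin (chr19:34241090-34255590 of mm10, minus strand), stood at 5731 CPM with IgG and 2329 CPM with 5E1 in cluster 21. It stood at 4057 and 1919 CPM in cluster 12 and at 4417 and 2541 CPM in cluster 23. The level was thus 2.46-fold (2.38 to 2.55), 2.11-fold (2.04 to 2.20) and 1.74-fold (1.69 to 1.79) lower. Even so, the 5E1 level in each of these clusters was above that in B cell-like cells, 196 CPM with IgG and 84.4 CPM with 5E1. Actg2, the gamma smooth muscle actin best known from visceral muscle (chr6:83512905-83536265, minus strand), stood at 1926 and 929 CPM in cluster 21. In clusters 12 and 23 it stood at 1008 against 451 CPM and at 1173 against 547 CPM. These are 2.07-fold (1.96 to 2.19), 2.24-fold (2.07 to 2.42) and 2.14-fold (2.03 to 2.27) differences, close to one another in size. The third actin, Actc1, is known from heart and from fetal smooth muscle and was the exception: in cluster 21 it was higher, at 65.9 CPM with IgG and 100.1 CPM with 5E1, a ratio of 1.52 (1.26 to 1.83), where B cell-like cells had 51.0 and 5.75 CPM. That direction did not hold in the subset of cells described with the sex of the pups below.

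The myosin genes were lower as well, by smaller factors for the heavy chain and the essential light chain. Myh11, the smooth muscle myosin heavy chain (chr16:14194535-14291372, minus strand), stood at 176, 315 and 244 CPM in clusters 12, 21 and 23 of the IgG library and at 117, 176 and 146 CPM in the 5E1 library. It was 1.51-fold (1.29 to 1.78), 1.79-fold (1.58 to 2.03) and 1.67-fold (1.49 to 1.87) lower. Myl9, the regulatory light chain that the kinase phosphorylates (chr2:156775420-156781658, plus strand), stood at 985, 1774 and 1128 CPM in the IgG and 453, 914 and 680 CPM in the 5E1 library. It was 2.18-fold (2.02 to 2.35), 1.94-fold (1.84 to 2.05) and 1.66-fold (1.57 to 1.75) lower. Myl6, the essential light chain, is shared with nonmuscle myosin and is expressed in many cells. It stood at 2404, 3375 and 2989 CPM in the IgG and 1675, 2193 and 2237 CPM in the 5E1 library, which passed the 1.5-fold limit in cluster 21 alone.

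The genes that act on myosin phosphorylation differed among themselves in direction. Mylk, the light chain kinase, stood at 636 CPM with IgG and 320 CPM with 5E1 in cluster 21, 1.99-fold (1.81 to 2.18) lower. In clusters 12 and 23 its differences of 1.43-fold and 1.29-fold stayed below the limit. Ppp1r14a, which encodes the phosphatase inhibitor CPI-17, stood at 149 and 58.9 CPM in cluster 21, 2.54-fold (2.06 to 3.16) lower, the lowest ratio in that cluster among genes with at least 200 UMIs. In cluster 12 it stood at 110.5 and 73.4 CPM and was counted as lower, but with the B cell-like level (58.3 and 19.2 CPM) subtracted the log2 ratio was 0.0595, so no difference is read there. It stood in cluster 23 at 154.5 and 148 CPM with an interval of the ratio (0.843 to 1.08) that includes 1. Ppp1r12b, a targeting subunit of myosin phosphatase, had no lower level in any of the 3 clusters. It stood at 27.3 and 27.7 CPM in cluster 12, 118 and 160 CPM in cluster 21 and 27.5 and 34.2 CPM in cluster 23, and the ratio was 1.36 (1.17 to 1.57) in cluster 21.

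Of the thin filament genes with enough UMIs, Cnn1 and Tpm1 differed most. Cnn1, the gene of calponin 1, a marker of differentiated smooth muscle (chr9:22099216-22109630, plus strand), stood at 651 CPM with IgG and 261 CPM with 5E1 in cluster 21. It stood at 146 and 68.5 CPM in cluster 12 and at 141 and 41.8 CPM in cluster 23. The differences were 2.49-fold (2.26 to 2.76), 2.13-fold (1.75 to 2.62) and 3.37-fold (2.79 to 4.08). Tpm1, a tropomyosin (chr9:67022590-67049406, minus strand), stood at 1657, 1697 and 1870 CPM in clusters 12, 21 and 23 of the IgG and at 635, 778 and 712 CPM in the 5E1 library. It was 2.61-fold (2.45 to 2.79), 2.18-fold (2.06 to 2.31) and 2.63-fold (2.50 to 2.75) lower, the lowest ratio in cluster 12. The other tropomyosins differed less: Tpm2 (chr4:43514711-43523765, minus strand) stood at 787, 944 and 714 CPM against 502, 567 and 439 CPM, between 1.57-fold and 1.67-fold lower. For Tpm4 the differences of 1.28-fold to 1.46-fold stayed below the limit in all 3 clusters.

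Tagln, which encodes transgelin or SM22 (chr9:45929619-45936058, minus strand), stood at 2069, 3480 and 2946 CPM in clusters 12, 21 and 23 of the IgG library and at 1102, 2050 and 2107 CPM in the 5E1 library. It was 1.88-fold (1.79 to 1.97) and 1.70-fold (1.64 to 1.76) lower in clusters 12 and 21, and its 1.40-fold (1.36 to 1.44) difference in cluster 23 stayed below the limit. Cnn2, the more widely expressed calponin 2, was 1.503-fold, 2.11-fold and 1.52-fold lower. Lmod1, a leiomodin that nucleates actin filaments, stood at 19.4, 92.8 and 25.2 CPM against 9.87, 49.4 and 15.2 CPM, 1.97-fold, 1.88-fold and 1.65-fold lower. Smtn, smoothelin, was 1.96-fold (1.56 to 2.48) lower in cluster 21, with 1.40-fold and 1.34-fold differences in clusters 12 and 23. Cald1, which encodes caldesmon and is also made by nonmuscle cells, was nearly level: 1556 and 1452 CPM in cluster 12, 1536 and 1352 CPM in cluster 21 and 1681 and 1546 CPM in cluster 23.

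Des stood against the other genes. Desmin, the intermediate filament protein of muscle (chr1:75360329-75368579, plus strand), stood at 551 CPM with IgG and 623.5 CPM with 5E1 in cluster 12. In clusters 21 and 23 it stood at 992 and 1076 CPM and at 744 and 916 CPM. All 3 ratios, 1.13 (1.05 to 1.21), 1.08 (1.03 to 1.15) and 1.23 (1.17 to 1.30), had counting intervals above 1 and were below the 1.5-fold limit. Des and Ppp1r12b were the 2 genes of the 26 with an interval above 1 in at least 1 of these clusters.

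Dense body and adhesion genes ranged from near level to more than 2-fold lower. Actn1, an alpha-actinin that anchors actin at dense bodies, stood at 360, 235 and 365 CPM against 244, 119.5 and 240 CPM in clusters 12, 21 and 23, 1.47-fold, 1.97-fold and 1.52-fold lower. Pdlim7, an adaptor of actin filaments, was 1.70-fold, 1.57-fold and 1.43-fold lower, and Flna, the actin crosslinker filamin A, 1.43-fold, 1.62-fold and 1.36-fold lower. Synpo2, which binds actin and alpha-actinin at Z discs and dense bodies, stood at 43.6 and 18.2 CPM in cluster 21, 2.39-fold (1.64 to 3.60) lower, and at 15.4 and 6.78 CPM in cluster 12, where 92 and 11 UMIs carry the difference and its direction turned after thinning (log2 ratio of 0.49). Pdlim3, Csrp1, Tln1 and Vcl, which encode 2 LIM domain proteins, talin and vinculin, differed by 1.10-fold to 1.51-fold, and of these Pdlim3 (1.501-fold) and Vcl (1.51-fold) passed the limit, in cluster 21 alone. Actn4, an alpha-actinin found in most cells, passed it in cluster 23 alone, at 44.9 and 29.4 CPM.

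Myocd, whose product works with serum response factor at CArG boxes (chr11:65176561-65269989, minus strand), was measured in cluster 21, where 153 UMIs with IgG and 9 with 5E1 make 29.8 and 5.30 CPM. This is a 5.63-fold (2.89 to 12.5) lower level, the lowest ratio of the 29 genes measured there. Its sums in the other 2 clusters were under the minimum of 100 UMIs, 59 against 5 UMIs in cluster 12 and 34 against 10 UMIs in cluster 23, and the ratios were 0.312 (0.0977 to 0.770) and 0.257 (0.113 to 0.532). The B cell-like cluster held 1 and 2 UMIs of Myocd. Kcnmb1, a subunit of the calcium-activated potassium channel, had 31, 34 and 21 UMIs in these clusters of the IgG library and 2, 5 and 8 in the 5E1 library, also under the minimum. Pln, phospholamban, which holds back the calcium pump, was under the minimum in each of the 9 mesenchymal clusters and had its highest level in cluster 16, at 40 and 8 UMIs. Tnnt2, a troponin T known from heart, had 37, 77 and 30 against 2, 6 and 11 UMIs, and its level in B cell-like cells of the IgG library, 26.2 CPM, was above that in clusters 12, 21 and 23 (6.20, 15.0 and 9.70 CPM), so no difference is read from it.

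**Figure D2:**
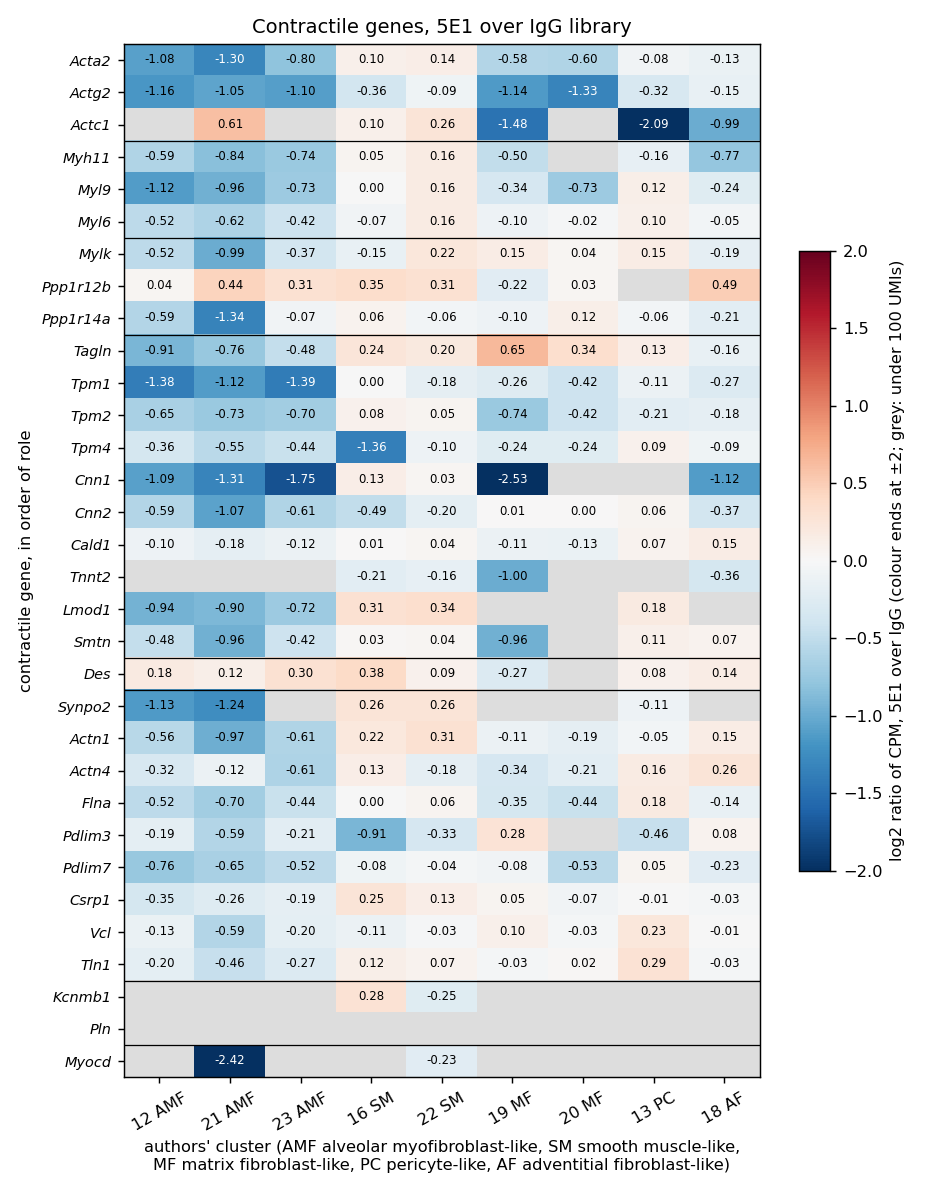
Log2 ratio of CPM (5E1 over IgG) of each contractile gene in 9 mesenchymal clusters, with genes in order of role (lines separate actins, myosins, kinase and phosphatase, thin filament, intermediate filament, dense body and adhesion, channels and pump, coactivator) and grey cells under 100 UMIs. The first 3 columns are mostly blue, down to -2.42 for Myocd in cluster 21, while the columns of clusters 16 and 22 are near 0 apart from Tpm4 and Pdlim3 in cluster 16.

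**Figure D3:**
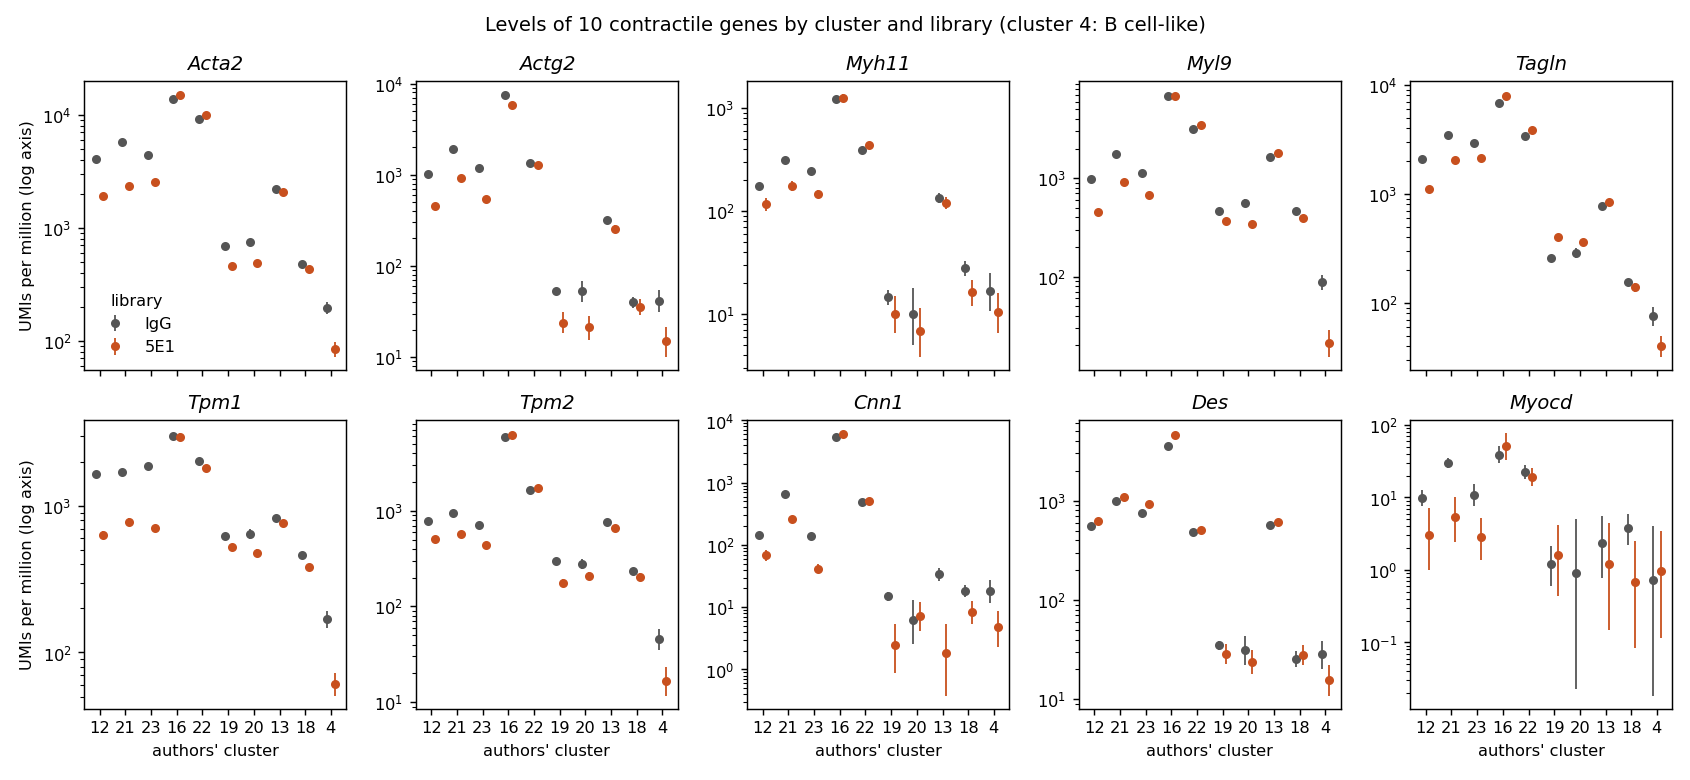
CPM (log axis) of 10 contractile genes in the 9 mesenchymal clusters and in the B cell-like cluster 4, as 1 point per library with exact 95% Poisson intervals, and no point where a library has no UMI. In clusters 12, 21 and 23 the 5E1 point lies below the IgG point for each gene shown except Des, and in cluster 16 all 10 pairs lie close together.

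Single cells of the alveolar myofibroblast-like clusters were shifted to fewer contractile UMIs in the 5E1 library. After each cell was thinned to 1000 UMIs, a cell of cluster 21 held a median of 27 contractile UMIs in the IgG library (quartiles 20 and 36) and 14 in the 5E1 library (9 and 20). The medians were 19 (13 and 27) against 10 (7 and 15) in cluster 12 and 22 (15 and 28) against 15 (10 and 20) in cluster 23. Of the 5E1 cells, 72.8% in cluster 21, 59.9% in cluster 12 and 49.8% in cluster 23 lay below the lower quartile of the IgG cells of that cluster, as did 24.9%, 20.5% and 20.6% of the IgG cells themselves, and the 2 distributions overlapped in each. In smooth muscle-like cells the medians were 63 against 74 in cluster 16 and 32 against 35 in cluster 22. Pericyte-like cells had 15 in both libraries, adventitial fibroblast-like cells 5 in both, matrix fibroblast-like cells 10 against 9 (cluster 19) and 11 against 9 (cluster 20), and B cell-like cells 2 against 1.

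**Figure D4:**
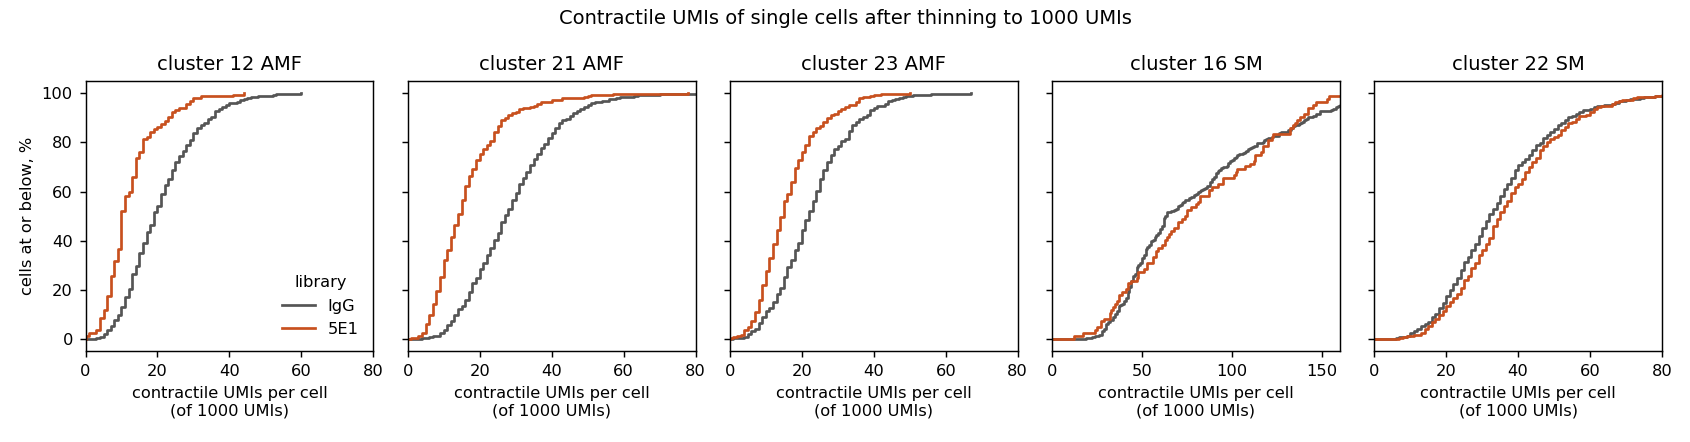
Cumulative share of cells (percent) by the number of contractile UMIs among 1000 UMIs drawn per cell, for the 3 alveolar myofibroblast-like and the 2 smooth muscle-like clusters. The 5E1 curves of clusters 12, 21 and 23 lie to the left, with medians of 10, 14 and 15 UMIs against 19, 27 and 22, and the curves of clusters 16 and 22 lie close together.

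In the alveolar myofibroblast-like clusters fewer cells of the 5E1 library had a UMI of several main genes at equal depth. The intervals of the 2 libraries overlapped for Myh11 in clusters 12 and 23 and for Cnn1 in cluster 12. In cluster 22 Acta2 was seen in 98.0% of IgG and 98.8% of 5E1 cells, Tagln in 90.2% and 94.1%, and Actg2 in 60.9% and 57.6%. In cluster 21, Acta2 was seen in 93.5% (91.8 to 94.97%) of IgG and 63.4% (58.3 to 68.2%) of 5E1 cells after thinning, with 12.3% and 3.99% in B cell-like cells, and before thinning in 99.1% and 84.9%. Median depths before thinning were 4981.5 and 4022.5 UMIs per cell in cluster 21 and 2498.5 and 3325 UMIs in the B cell-like cluster. Cnn1 was seen in 40.4% (37.4 to 43.6%) and 17.5% (13.9 to 21.7%) of cluster 21, in 11.1% and 4.79% of cluster 12 and in 11.2% and 3.44% of cluster 23, with 2.13% and 0.470% in B cell-like cells. Tpm1 was seen in 76.2% and 48.2% of cells of cluster 21, and Tagln in 92.4% and 70.9%. For Des the shares were 53.4% (50.2 to 56.5%) and 54.7% (49.6 to 59.8%), within counting error. A cell without a UMI is not shown to lack the transcript.

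The smooth muscle-like clusters did not show the lower level. Of 30 contractile genes measured in cluster 16, 2 were lower and 0 higher by 1.5-fold, where 7.91% and 2.95% of all genes were lower and higher, and the median log2 ratio was 0.06 beside -0.04 over all genes. Of 31 measured in cluster 22, 0 were lower and 0 higher, against 2.04% and 1.57%, with a median of 0.05 beside -0.02. Cluster 16 is led by Actc1, Cnn1, Tnnt2, Actg2 and the muscarinic receptor gene Chrm2, and cluster 22 by genes such as Map3k7cl, Kcna5 and Lmod1. Cluster 16 held 286 IgG and 84 5E1 cells, and cluster 22 held 751 and 493.

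In cluster 16 most of the main genes were nearly level between the libraries. Acta2 stood at 13822 CPM with IgG and 14848 CPM with 5E1, a ratio of 1.07 (1.04 to 1.10). Myh11 stood at 1226 and 1267 CPM, Myl9 at 6914 and 6895 CPM, and Tpm1 at 2978 and 2973 CPM. Tpm2 stood at 5884 and 6218 CPM, Cnn1 at 5503 and 6012.5 CPM, and Tagln at 6723 and 7924 CPM, with ratios of 1.06, 1.09 and 1.18. Des had the highest ratio of the cluster, 3505 against 4569 CPM, which is 1.30 (1.24 to 1.37), and Actg2 was below it at 7511 and 5840 CPM, 1.29-fold (1.23 to 1.34) lower. The 2 genes past the limit were Tpm4, a tropomyosin of nonmuscle cells, at 336 and 130 CPM, 2.59-fold (1.97 to 3.46) lower, and Pdlim3, at 722 and 382 CPM, 1.89-fold (1.61 to 2.23) lower. Next to them was Cnn2, at 498 and 353 CPM, 1.41-fold (1.19 to 1.69) lower, and after Des the highest ratios were those of Ppp1r12b, at 232 and 295 CPM, and Lmod1, at 362 and 447 CPM. Myocd had 58 and 23 UMIs there, a ratio of 1.31 (0.772 to 2.16) that counting error leaves undecided.

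Cluster 22 was likewise level or slightly higher in the 5E1 library. Acta2 stood at 9128 and 10034 CPM, a ratio of 1.10 (1.08 to 1.12), Tagln at 3386 and 3881 CPM, a ratio of 1.15 (1.12 to 1.18), and Myl9 at 3144 and 3506 CPM. Lmod1 had the highest ratio, 310 against 392 CPM, which is 1.26 (1.16 to 1.38). Pdlim3 had the lowest, 79.6 against 63.1 CPM, which is 0.793 (0.650 to 0.966). Cnn2 stood at 640 and 557 CPM, Ppp1r12b at 62.9 and 78.0 CPM and Actn1 at 440 and 545 CPM, with ratios of 0.871, 1.24 and 1.24. Cnn1 at 497 and 509.5 CPM, Myh11 at 396 and 443 CPM, Des at 478 and 507 CPM, Tpm1 at 2036 and 1802 CPM and Actg2 at 1362 and 1282 CPM all differed by less than 1.5-fold. Myocd, with 77 and 50 UMIs, stood at 22.5 and 19.1 CPM, a ratio of 0.849 (0.583 to 1.23). When clusters 16 and 22 were summed, 5 of 31 measured genes (Actg2, Mylk, Cnn1, Tnnt2 and Pdlim3) were at least 1.5-fold lower. Cluster 16 alone had 2 such genes and cluster 22 none. The share of all genes past the limit in this sum is not given, and the median was -0.14 beside -0.04 over all genes. Cluster 16, with the higher level of these genes, made up 286 of the 1037 summed cells in the IgG and 84 of 577 in the 5E1 library, so the clusters are described one by one.

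Actc1 and Tnnt2 are also genes of heart muscle, and Actc1 had 86.0% and Tnnt2 65.1% of all their UMIs in clusters 16 and 22. Actc1 stood at 5436 and 5832 CPM in cluster 16 and at 677 and 809 CPM in cluster 22. Tnnt2 stood at 772 and 668 CPM and at 108.5 and 96.8 CPM. The 12 cardiomyocyte markers together reached 98.0 and 73.8 CPM in cluster 16, with Nkx2-5 and Ttn at 0 in the IgG and Myh6, Tnnc1, Sln, Nkx2-5 and Ttn at 0 in the 5E1 library. They reached 126 and 55.1 CPM in cluster 22, with Nppa at 0 in the IgG and Nppa and Nkx2-5 at 0 in the 5E1 library. Of cells with at least 10 UMIs of Myh6, Myl7 and Nppa together, 24 with IgG and 19 with 5E1, 1 and 0 lay in clusters 16 and 22.

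In matrix fibroblast-like cells contractile levels were low and the genes differed in direction. In cluster 19, 27 genes were measured, 6 were lower and 1 higher, against 8.96% and 4.82% of all genes, with a median of -0.24 beside -0.06. In cluster 20, 20 were measured, 3 lower and 0 higher, against 4.1% and 5.39%, with a median of -0.16 beside -0.02. Acta2 stood at 689 and 460 CPM in cluster 19, 1.496-fold (1.40 to 1.60) lower and just short of the limit, and at 747 and 492.5 CPM in cluster 20, 1.52-fold (1.38 to 1.66) lower. Tagln went the other way, at 256 and 402.5 CPM in cluster 19, a ratio of 1.57 (1.46 to 1.69), and at 287 and 362.5 CPM in cluster 20, a ratio of 1.26 (1.11 to 1.45). Myl9 stood at 462 and 364 CPM in cluster 19 and at 563 and 339 CPM in cluster 20, 1.66-fold (1.49 to 1.85) lower in the latter. Tpm2 stood at 297 and 177 CPM in cluster 19, 1.68-fold (1.51 to 1.86) lower, and Tpm1 at 623 and 521 CPM. Mylk, at 496 and 551.5 CPM, had a ratio of 1.11 (1.05 to 1.18). Smtn was counted as lower in cluster 19, at 35.8 and 18.2 CPM, 1.97-fold (1.44 to 2.75), above the 7.29 and 6.23 CPM of B cell-like cells. Of the genes counted as lower there, 4 were near or below the B cell-like level: Tnnt2 at 10.1 and 4.86 CPM, beside 26.2 and 4.31 CPM in cluster 4, and Actg2 at 52.9 and 23.9 CPM, Actc1 at 24.1 and 8.50 CPM and Cnn1 at 15.2 and 2.43 CPM, beside 41.5 and 14.9, 51.0 and 5.75, and 18.2 and 4.79 CPM in cluster 4. Actg2, the third gene counted as lower in cluster 20, stood at 53.2 and 21.1 CPM. No change in matrix fibroblast-like cells is read from these 4 genes. Pdlim3 stood at 23.8 and 28.75 CPM in cluster 19, and in cluster 20 Pdlim7 stood at 101 and 69.8 CPM, Ppp1r14a at 982 and 1066 CPM and Mylk at 539 and 554 CPM. In cluster 20 Tpm1 stood at 642 and 481 CPM and Tpm2 at 278 and 208 CPM. Myh11 and Des were low in both clusters, at 14.5 and 10.1 CPM and at 35.0 and 28.75 CPM in cluster 19, with intervals that include 1.

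Pericyte-like cells were nearly level. In adventitial fibroblast-like cells (cluster 18) the summed share was slightly lower in the 5E1 library, a ratio of 0.927 (0.909 to 0.945). With the B cell-like level subtracted the median of cluster 18 was 0.11. In cluster 13, 26 genes were measured, 1 was lower and 0 higher, against 2.55% and 2.32% of all genes, with a median of 0.06 beside 0.02. The 1 gene was Actc1, at 50.8 and 11.7 CPM, a level found in B cell-like cells too (51.0 and 5.75 CPM). Acta2 stood at 2191 and 2077 CPM in cluster 13, Myl9 at 1639 and 1785 CPM, Tagln at 774.5 and 846 CPM, and Des at 571 and 604 CPM. The highest ratio there was that of Tln1, at 355 and 435 CPM, which is 1.22 (1.10 to 1.36), followed by Vcl at 150 and 176 CPM and Flna at 283 and 320 CPM. Among genes with at least 200 UMIs the lowest were Actg2 at 317 and 255 CPM, Tpm2 at 765 and 659.5 CPM and Myh11 at 135 and 121 CPM, and Tpm1 stood at 823.5 and 763 CPM. In cluster 18, 27 genes were measured, 3 were lower and 0 higher, against 2.84% and 1.81%, with a median of -0.14 beside -0.01. These were Actc1, Myh11 and Cnn1, at 31.95, 28.0 and 18.4 CPM in the IgG and 15.95, 16.3 and 8.32 CPM in the 5E1 library, beside 51.0, 16.8 and 18.2 CPM in B cell-like cells of the IgG library. Acta2 stood at 474 and 434 CPM, Tagln at 155 and 139 CPM, and Tpm1 at 460 and 381 CPM. Myl9 stood at 461 and 389 CPM, Tpm2 at 233 and 205 CPM, Actg2 at 39.7 and 35.7 CPM and Des at 25.5 and 28.1 CPM. Cnn2, at 273.5 and 211 CPM, and Tnnt2, at 29.0 and 22.5 CPM, had the lowest ratios among genes with at least 200 UMIs, while Ppp1r12b, at 28.4 and 39.9 CPM, Actn4, at 71.2 and 85.3 CPM, and Cald1, at 339 and 376 CPM, had the highest.

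Genes that act upstream of the apparatus were taken as further lists, fixed with earlier results of these data known. Among 13 cofactors and partners of serum response factor, 10 were measured in cluster 12, 12 in cluster 21 and 10 in cluster 23, of which 3, 3 and 2 were lower and 1 was higher in each. Over all genes 7.94%, 6.46% and 4.59% were lower and 2.7%, 4.23% and 3.97% higher in these clusters, and the counts of the lists below are read against the same shares. Foxf1, a forkhead factor of lung mesenchyme, and Fhl1 and Fhl2, LIM-only proteins known from muscle, were lower in clusters 12 and 21, and the LIM genes in cluster 23 as well. Fhl2 stood at 131, 253 and 142 CPM in clusters 12, 21 and 23 of the IgG library and at 76.5, 149 and 70.3 CPM in the 5E1 library, between 1.70-fold and 2.01-fold lower. Foxf1 stood at 340, 262 and 338 CPM against 186, 163 and 233 CPM. Klf4, a repressor of smooth muscle genes, was higher in cluster 12, at 32.2 and 63.5 CPM, and in cluster 23, at 36.9 and 69.2 CPM, and stood at 51.2 and 55.9 CPM in cluster 21. For Srf itself, named after its values were seen, the levels of 29.3, 29.8 and 27.8 CPM against 27.7, 23.6 and 24.01 CPM differed within counting error.

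Of the 12 measured genes of RhoA, ROCK and myosin phosphatase signaling, which sets calcium sensitivity, none was 1.5-fold lower or higher in clusters 12, 21 or 23, and the medians were 0.05, -0.03 and -0.05. Of 13 nonmuscle actomyosin genes 0, 1 and 1 were lower, with medians of -0.30, -0.32 and -0.28. Actb, the cytoplasmic actin, stood at 5181, 4953 and 5266 CPM against 3592, 3392 and 3706 CPM. Of 14 genes of receptors that trigger contraction, with the endothelin ligand gene Edn3 counted among them, 2, 3 and 3 had enough UMIs, and 2, 1 and 1 of these were lower. Ednrb, an endothelin receptor, stood at 28.8 and 3.70 CPM in cluster 12 and at 29.7 and 4.24 CPM in cluster 23, 7.79-fold (3.50 to 21.5) and 7.02-fold (4.04 to 13.1) lower, and at 41.1 and 25.3 CPM in cluster 21. Gucy1a3, a subunit of the nitric oxide receptor guanylate cyclase, was higher, at 116 and 245 CPM in cluster 12 and at 152 and 327 CPM in cluster 23, ratios of 2.12 (1.87 to 2.40) and 2.16 (1.93 to 2.40), while cluster 21 had 121 and 154 CPM. The whole nitric oxide and cGMP list had 4, 7 and 4 measured genes in clusters 12, 21 and 23, of which 0 were lower and 1, 0 and 2 higher. The calcium and channel list had 9, 12 and 9, of which 0, 1 and 0 were lower (Kcnma1 in cluster 21) and 1 was higher in each (Stim1 in cluster 12 and Kcnj8 in clusters 21 and 23). Of the integrin and focal adhesion genes 14, 14 and 13 were measured, and 0, 1 and 0 were lower and none higher.

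**Figure D5:**
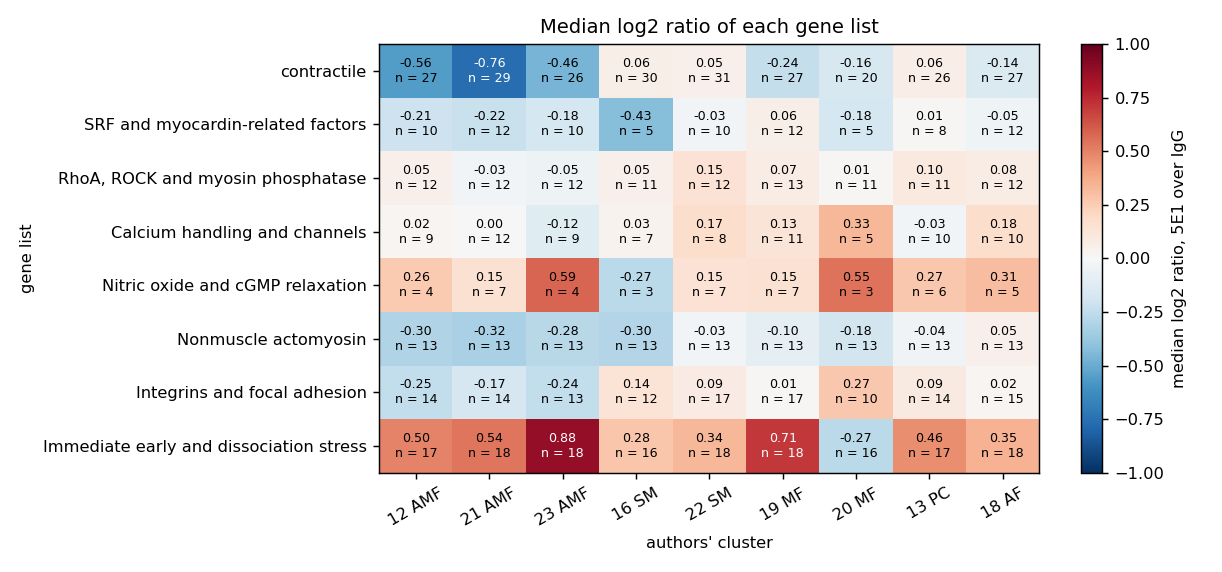
Median log2 ratio (5E1 over IgG) of the contractile genes and of 7 further gene lists in 9 mesenchymal clusters, over the genes of each list with at least 100 UMIs (n in each cell). The contractile list stands at -0.56, -0.76 and -0.46 in clusters 12, 21 and 23. The receptor list (-1.72, -0.35 and -0.48), the cardiac list (-0.90, -0.76 and -1.75) and the Hedgehog target list (-3.28, -2.31 and -3.05), with 1 to 3 measured genes in these clusters, are not drawn. The immediate early list stands highest in cluster 23 (0.88).

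Hedgehog target genes checked the labels of both libraries in the same clusters. Ptch1, the ligand receptor and a target, stood at 77.0, 80.3 and 80.5 CPM in clusters 12, 21 and 23 of the IgG library and at 9.87, 14.1 and 7.34 CPM in the 5E1 library. Hhip, a ligand-binding inhibitor and a target, stood at 42.2, 299 and 33.0 CPM against 3.08, 67.1 and 5.08 CPM. Smooth muscle-like cells had lower target levels too: in cluster 16 Hhip stood at 500.5 and 188 CPM, 2.67-fold (2.13 to 3.38) lower, beside contractile genes at a median of 0.06. Below the minimum of UMIs, Ptch1 had 86 and 6 UMIs in cluster 16 and 71 and 21 UMIs in cluster 22, ratios of 0.231 (0.0824 to 0.523) and 0.387 (0.226 to 0.637).

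Several other measures differed between the libraries in the clusters where contractile genes did, and their part in the result was not tested. The summed level of 14 pericyte markers, Gucy1a3 among them, was higher, at 407 and 616 CPM in cluster 12, 833 and 1176 CPM in cluster 21 and 507 and 762.5 CPM in cluster 23, with all 14 detected in the IgG and 12, 13 and 13 in the 5E1 library (Lamc3 at 0 in each, Trpc6 in cluster 12). That sum was 17951 and 20115 CPM in the pericyte-like cluster. By the levels of Gucy1a3 given above, this gene alone made up most of the difference in the sum in clusters 12 and 23, but not in cluster 21. Genes of the immediate early response, which dissociation is known to induce, were mostly higher. The medians of this list were 0.50, 0.54 and 0.88 in clusters 12, 21 and 23. They were positive also where contractile genes were level (0.28 in cluster 16, 0.34 in cluster 22 and 0.46 in cluster 13), while cluster 20 had -0.27. Hspa1a, a stress gene of the same list, went the other way, with log2 ratios of -1.09 in cluster 21 and -1.20 in cluster 23. The summed level of 5 dividing cell markers was 1267 and 1654 CPM in cluster 12, 106 and 50.0 CPM in cluster 21 and 88.9 and 84.4 CPM in cluster 23. The 6 epithelial markers, all detected in each of the 9 mesenchymal clusters, had a lower sum there, with ratios between 0.315 and 0.726, and in B cell-like cells (4177 and 2305 CPM, with Foxj1 at 0 in the IgG library). The 12 cardiomyocyte markers had a lower sum too, at 51.6 and 30.2 CPM in cluster 12, 97.2 and 49.45 CPM in cluster 21 and 75 and 29.4 CPM in cluster 23, with 10, 11 and 9 of them detected in the IgG and 8, 10 and 10 in the 5E1 library. Nkx2-5 was at 0 in each of these but cluster 21 of the IgG library, Nppa in each but cluster 12 of the IgG library, and B cell-like cells had 244 and 47.9 CPM. The 4 immune markers, all detected, stood at 258 and 226 CPM, 394 and 278 CPM and 283 and 186 CPM in clusters 12, 21 and 23. Acta2 differed in B cell-like cells in the direction of the myofibroblasts, and with the B cell-like level of each library subtracted the contractile medians of clusters 12, 21 and 23 were -0.61, -0.92 and -0.54.

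The labels give no sex for the pooled pups, and the libraries differed in it. Cells with a UMI of Xist, an RNA made from the silenced X chromosome, and none of 4 Y-linked genes numbered 623 of 640, 951 of 974 and 477 of 494 in clusters 12, 21 and 23 of the IgG library, and 52 of 168, 83 of 384 and 85 of 552 in the 5E1 library. In these cells the contractile medians were -0.50, -0.98 and -0.45. Actc1 in cluster 21, higher over all cells, had a log2 ratio of -0.57 in them. Such 5E1 cells come from part of the pool, so sex and pup cannot be told apart.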

How the data were processed

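Whole lung cells of 2 libraries, 1 for control IgG and 1 for 5E1, were analysed, with groups taken from the treatment label. Values in the deposited matrices are counts of UMIs per gene and cell, as whole numbers with no normalization per the file headers. Per the submitters' processing notes the authors used Cell Ranger 3.1.1 and the mm10 genome, while the file headers name another software version. How reads that match several genes were counted is not given in the sources used here. Cluster and library of each cell came from the authors' deposited cell table, whose header is shifted by 1 column, so these columns were identified from their values, and cells outside that table were not used. How doublets were treated is not given in the sources used here. No caller was run, and an alternative left out cells with UMIs of other lineages.

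UMIs were summed per library and cluster and scaled to all UMIs of the cluster. Levels have exact Poisson, ratios exact conditional binomial and shares of cells exact Clopper-Pearson 95% intervals. Log2 ratios have 0.5 UMI added to each sum. Shares of cells were taken after thinning to 1000 UMIs, leaving out between 0 and 7 shallower cells per cluster and library. The calculation was tested on simulated data.

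The members and gene lists were chosen with earlier results of these data known. Values are written out for Acta2, Tagln, Myl9, Tpm1, Tpm2, Cnn1, Myh11, Actg2, Des and Myocd, and in each cluster for the 3 members with the lowest and the 3 with the highest ratio among those with at least 200 UMIs. Values of other members were chosen after they were seen. Of related lists the 4 genes with most UMIs and genes past 2-fold may be named, and cofactors past 1.5-fold were added after their values were seen, as was Stim1. A gene of the calcium and channel list is not reported here and was left out of its counts. Alternatives were another scaling, other limits of UMIs and of fold, subsets of cells, thinning and subtraction of the B cell-like level. Python 3.11.15, numpy 2.4.6, scipy 1.17.1, pandas 2.3.3 and matplotlib 3.10.9 were used. Gene coordinates are those of the GENCODE annotation of mm10.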

Additional observations from a re-analysis of the deposited data

Results flagged for a closer look

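The ratios of 4 contractile genes stood on opposite sides of 1 in 2 kinds of cells, with the whole counting interval below 1 in each of the alveolar myofibroblast-like clusters 12, 21 and 23 and above 1 in both smooth muscle-like clusters 16 and 22. The difference between the 2 kinds of cells was not tested, since all clusters come from the same 2 libraries. The share of all genes with this pattern is not given, so the number of 4 is not read as particular to contractile genes. For Acta2 the mean log2 ratio (5E1 over IgG) was -1.06 over the 3 clusters and 0.12 over the 2, a difference of -1.18. For Lmod1, the leiomodin, the means were -0.85 and 0.32, a difference of -1.17. For Tagln they were -0.72 and 0.22, a difference of -0.94. For Csrp1, a LIM domain protein of actin bundles, they were -0.26 and 0.19, a difference of -0.45. None of the 4 passed 1.5-fold in cluster 16 or 22, and Csrp1 passed it in none of the 5 clusters.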

How the results depend on the processing

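No paired analysis was possible because each condition is 1 library and the labels carry no replicate numbers. Medians of the contractile genes were set beside the median lower and the median upper bound of the single genes' counting intervals. These bounds are not an interval of the median itself. The medians stayed between them under each alternative run in every cluster other than 21 and 18. In cluster 21 the median was -0.98 in cells with Xist and no Y-linked UMI and -0.92 with the B cell-like level subtracted, which also gave 0.11 in cluster 18. Counts below are given only for clusters where they moved, so a cluster not named need not stand at 0. With 2-fold as the limit 6, 8, 3, 1 and 1 contractile genes were lower in clusters 12, 21, 23, 16 and 20. Cluster 19, not named there, had Cnn1 at 15.2 CPM with IgG and 2.43 CPM with 5E1. In the cells with Xist 4, 1, 2 and 6 were lower in clusters 16, 22, 13 and 18, where the 5E1 library held 17, 118, 72 and 163 such cells. Without cells that held UMIs of other lineages 2 were lower in cluster 13, and with the B cell-like level subtracted 3 were lower in cluster 19. Counts of higher genes moved as well: subtraction gave 1, 4, 1, 1 and 6 in clusters 23, 19, 20, 13 and 18, thinning gave 2, 1 and 1 in clusters 16, 20 and 18, and leaving out cells with UMIs of other lineages gave 1 in cluster 18. In cluster 21 there were 0 in cells with Xist, and with 2-fold as the limit 0 in clusters 21 and 19. With at least 20 UMIs 1, 6 and 3 were lower in clusters 22, 20 and 13, and with no minimum 1, 10, 10, 5 and 6 in clusters 22, 19, 20, 13 and 18. Apart from the 2-fold limit in clusters 12, 21 and 23, the share of all genes under these alternatives is not given. No result about the contractile genes is read from these counts.

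Log2 ratios of the summed contractile UMIs moved past their narrow counting intervals under several settings. Median-ratio size factors gave -0.60, -0.72, -0.48, 0.0880, 0.12 and -0.0317 in clusters 12, 21, 23, 16, 22 and 19. Cells with Xist gave -0.55, -1.09, -0.0205, -0.20, -0.21, -0.0563 and -0.14 in clusters 12, 21, 16, 19, 20, 13 and 18. Leaving out cells with UMIs of other lineages gave -0.75, 0.0178 and -0.0716 in clusters 12, 16 and 18. Thinning to 1000 UMIs gave -0.75, -0.82, -0.52 and -0.14 in clusters 12, 21, 23 and 18. Subtracting the B cell-like level gave -0.71, -0.80, 0.14, -0.0062, -0.0561, 0.10 and 0.11 in clusters 12, 21, 22, 19, 20, 13 and 18. The cause was not tested.

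Directions turned for Ppp1r14a in cluster 12 (0.0595) and Cnn1 in cluster 18 (3.83) with the B cell-like level subtracted, Synpo2 in cluster 12 after thinning (0.49), Actc1 in cluster 21 (-0.57) and the median of the nitric oxide and cGMP list in cluster 23 (-0.0404) in cells with Xist, and the share of cells with Des in cluster 18 when at least 2 UMIs were asked for (2.51). Of 243 log2 ratios of single contractile genes 139 stayed within their interval in cells with Xist, 230 with size factors, 149 after thinning and 231 without cells with UMIs of other lineages. Subtraction was left out where it brought a sum to 0.

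Pooling 3 pups into 1 library per condition leaves no measure of the spread between animals. Cluster 16 held 84 cells in the 5E1 library, 17 of them with Xist and no Y-linked UMI. Values at or below the B cell-like level carry no reading, which in the IgG library bears among others on Tnnt2 in clusters 12, 21, 23, 19, 20 and 13, Actc1 in clusters 12, 23, 19, 20, 13 and 18, and Cnn1 and Myh11 in clusters 19 and 20. The authors' clusters were taken as deposited, and another clustering of these cells was not tried.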
